A study of Mus musculus with 2 samples.

Results

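The genes of the mouse major histocompatibility complex (MHC) and of the machinery that loads its products were followed across the leukocytes of mite-treated skin. The set held every gene whose symbol begins with H2-, 34 in all, plus B2m, Cd74, Ciita, Tap1, Tap2, Tapbp, Nlrc5, Psmb8 and Psmb9, which makes 43 of the 27998 genes counted. It was chosen by gene name, with earlier results of these data known. Of these, 31 had 50 or more UMIs (counts of captured RNA molecules, told apart by their molecular tags) over both libraries and are described below, among them all 11 class II members and 19 of 31 class I members. The remaining kept member, H2-Ke6, encodes an enzyme of steroid and fatty acid metabolism that lies in the complex and presents no antigen. The 12 members below that limit were H2-Q1 with 33 UMIs, H2-Q2 with 12, and 10 genes with 0 UMIs in all 26553 barcodes (H2-T3, H2-M1, H2-M9, H2-M11 and the 6 H2-M10 genes). A count of 0 allows up to 3 UMIs per library. The members lie on chromosome 17 for 39 of 43, and B2m (2), Nlrc5 (8), Ciita (16) and Cd74 (18) lie elsewhere (GENCODE M21, mm10).

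MHC class II molecules show peptides from outside the cell to CD4 T cells, and in skin they are known from Langerhans cells, dermal dendritic cells, macrophages and B cells. Cd74 is the invariant chain that guards the class II groove, H2-DM exchanges the guard for peptide, H2-O restrains H2-DM, and Ciita switches the class II genes on. MHC class I molecules, a heavy chain with B2m, show peptides from inside the cell to CD8 T cells, and nearly all cells make them. The immunoproteasome subunits Psmb8 and Psmb9 cut these peptides, Tap1 and Tap2 carry them into the endoplasmic reticulum, Tapbp holds the empty class I molecule there, and Nlrc5 switches class I genes on.

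The study compared wild-type (WT) C57Bl/6 mice with IL31RAKO mice of that background, which have no alpha chain of the receptor for IL-31, and IL-31 is a T cell cytokine known for itch. Both groups were treated alike over 3 weeks with Biostir ointment of D. farinae house dust mite, put on the back skin 2 times weekly, with 2% SDS applied beforehand. From each genotype, the live CD45+ skin cells of 4 mice were sorted and pooled into 1 library, so no replicate exists, no test was possible and a difference between the libraries cannot be told apart from one between pools, sorts or droplet runs. Untreated skin was not analysed here, and the ages of the mice were not given in the sources used here.

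The WT library kept 11934 barcodes and 46236909 UMIs and the IL31RAKO library 14619 barcodes and 61370565 UMIs, with medians of 2918.5 and 3181 UMIs per barcode. Members took 5.55% of all these UMIs. Barcodes were sorted into cell classes by marker gates that hold none of the members, and each class name below stands for a marker-based, "-like" class. There were 10 classes with 100 or more barcodes in each library, and calls between genotypes were made for these and for all T cells together. They were type 1 and type 2 conventional dendritic cells (cDC1, cDC2), Langerhans cells, macrophages, monocytes, neutrophils, CD8 T, regulatory T, gamma-delta T and other T cells. The gated Langerhans cells held 3279 WT and 3397 IL31RAKO counts per 1000000 UMIs (CPM) of their 5 markers, against 59.1 and 64.4 in T cells. In cDC1 these markers were at 1150 and 1156 CPM. The gated macrophages held 11716 and 13752 CPM of their 10 markers, against 205 and 360 in T cells and 2375 and 2807 in Langerhans cells. The gates were made on these markers, so high levels in the gated class were set in advance and do not check its name. The targeted gene gave 11 UMIs in WT and 26 in IL31RAKO. Counting the transcript's 3′ end checks nothing here, since the deletion may not reach it. The libraries shared 247 barcodes, where the product of their numbers over the barcode list gives 237.

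Upstream stretches of H2-Aa, H2-Eb1, H2-Ob, H2-Q7 and H2-M5 are shown first, because class II genes are known for a paired promoter element, the X and Y boxes. H2-Q7 and H2-M5 are class I members. The stretches are the 200 bases before each gene's start, 5′ to 3′ on the gene's strand, from RefSeq on GRCm38.p6. Capitals mark GCAAC (part of an X box) followed by ATTGG (the core of a Y box) in the class II genes, and the longer Y box letters CTGATTGG, here on the other strand, in the class I gene H2-Q7. The stretch of H2-Aa is chr17:34287824-34288023 (- strand), that of H2-Eb1 chr17:34305667-34305866 (+), that of H2-Ob chr17:34238705-34238904 (+), that of H2-Q7 chr17:35438955-35439154 (+) and that of H2-M5 chr17:36989534-36989733 (-).
H2-Aa: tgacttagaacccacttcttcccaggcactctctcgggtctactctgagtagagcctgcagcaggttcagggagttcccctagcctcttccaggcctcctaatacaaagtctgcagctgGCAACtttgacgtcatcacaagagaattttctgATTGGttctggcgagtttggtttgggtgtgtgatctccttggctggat
H2-Eb1: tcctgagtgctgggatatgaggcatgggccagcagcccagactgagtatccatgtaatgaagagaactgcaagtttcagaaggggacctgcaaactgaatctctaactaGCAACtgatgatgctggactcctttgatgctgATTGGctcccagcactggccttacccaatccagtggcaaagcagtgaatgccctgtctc
H2-Ob: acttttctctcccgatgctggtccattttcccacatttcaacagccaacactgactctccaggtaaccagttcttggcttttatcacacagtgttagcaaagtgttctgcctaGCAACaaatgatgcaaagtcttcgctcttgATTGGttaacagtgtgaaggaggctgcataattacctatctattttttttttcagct
H2-Q7: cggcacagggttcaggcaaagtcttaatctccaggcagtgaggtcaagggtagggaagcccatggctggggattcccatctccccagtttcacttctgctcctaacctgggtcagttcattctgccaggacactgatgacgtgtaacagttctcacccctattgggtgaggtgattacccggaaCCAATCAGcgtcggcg
H2-M5: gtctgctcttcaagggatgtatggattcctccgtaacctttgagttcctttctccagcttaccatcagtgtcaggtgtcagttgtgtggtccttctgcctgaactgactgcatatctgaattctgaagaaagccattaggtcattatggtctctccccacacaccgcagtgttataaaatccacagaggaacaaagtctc

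The GCAAC and ATTGG letters started 81 and 48 bases before the start of H2-Aa, 91 and 59 bases before that of H2-Eb1, and 87 and 57 bases before that of H2-Ob. In H2-Q7 the Y box letters started 16 bases before the start. In windows from 250 bases before to 50 after the start, either strand, a GCAAC followed by ATTGG with starts 15 to 45 bases apart was found in 5 of the 25 kept members that had a window, and in 1.43% of 32851 windows of all genes. The 5 were all class II genes, H2-Oa, H2-Ob, H2-Aa, H2-Eb1 and H2-Eb2, of the 8 class II members with a window, and their spacing was 30 to 33 bases. The longer CTGATTGG was found in 11 of the 25 members, against 4.10% of all windows. Of the motifs searched (the letters above, TGACG as part of an X box, and the binding element of interferon regulatory factors), H2-M5, Psmb8 and H2-Q10 had none in their windows. The class I genes H2-K1, H2-D1 and H2-Q7 held both CTGATTGG and TGACG in their windows. A match is a description of letters, not of bound sites.

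Class II RNA filled 9.03% to 10.6% of all RNA counted in conventional dendritic and Langerhans cells and less in monocytes, and in T cells it stood at the level of NK cells, basophils and keratinocytes. In WT and IL31RAKO the 11 class II genes together took 10.2% and 10.6% of the UMIs of cDC1, 10.1% and 10.1% of those of Langerhans cells, 9.03% and 9.65% of those of cDC2, 5.94% and 6.10% of those of mature dendritic cells, 5.79% and 5.63% of those of macrophages, and 3.30% and 4.14% of those of monocytes. The few B cells (14 and 28 barcodes) held 3.63% and 5.15%. Within the dendritic cells the level was uneven. A cDC2 cluster led by Apod, Cd209e and Rbp4 held 137898 class II CPM in WT (210 barcodes) and 147676 in IL31RAKO (333 barcodes), while the cDC2 in a cluster led by Retnla and Lyz1 held 71111 and 71885 (221 and 327 barcodes). These clusters had been made without the member genes.

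**Figure D1:**
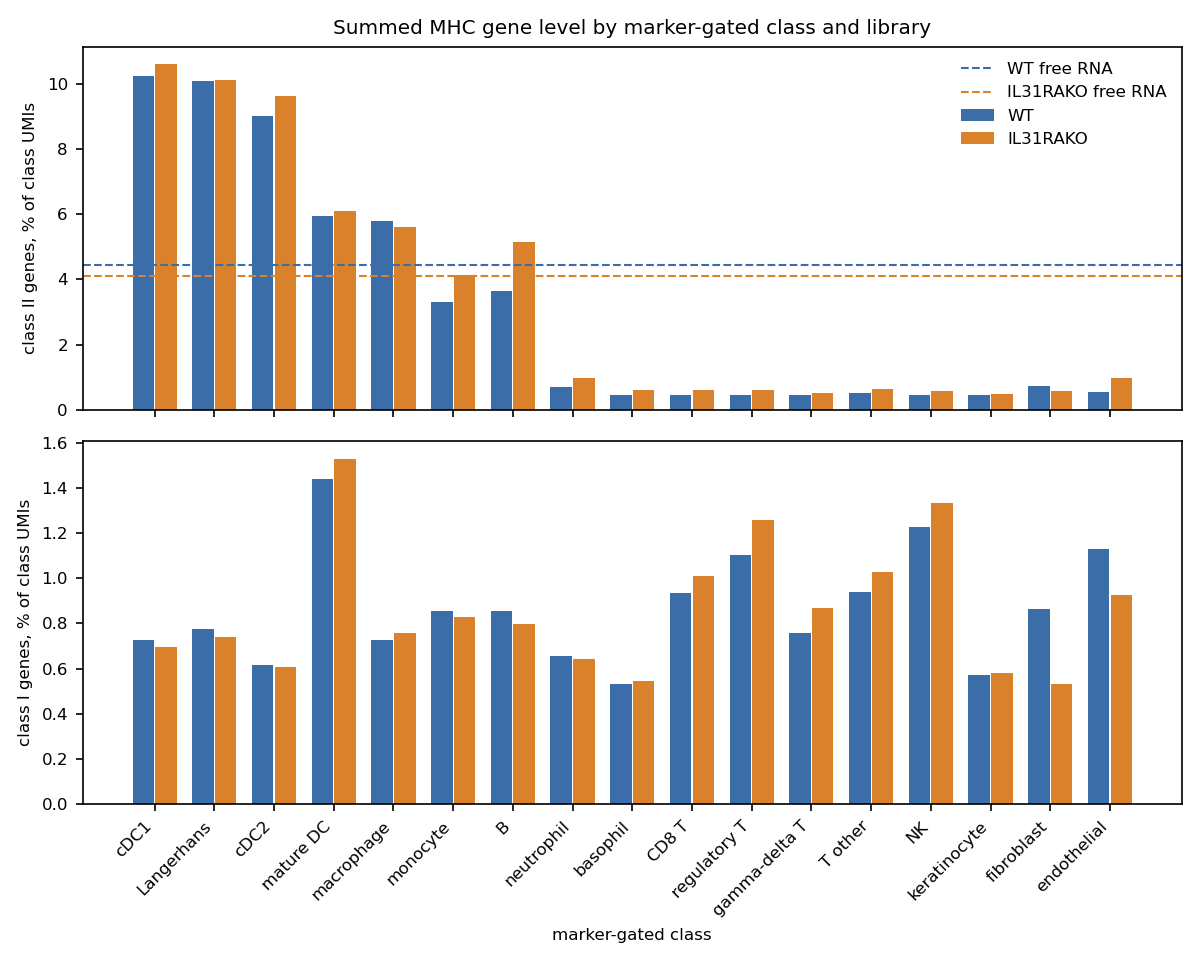
Bars give the summed UMIs of the class II genes (top) and class I genes (bottom) as a percentage of all UMIs of each marker-gated class, for the WT and IL31RAKO libraries, with 1 library each and no error bars. Dashed lines give the class II share of free RNA, 4.43% in WT and 4.11% in IL31RAKO, and the classes to the right of the B cells lie far below them.

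T cells, NK cells, basophils and keratinocytes served as the classes for comparison with free RNA, since cells of these types are not known for class II expression at the level of dendritic cells. In WT the class II level in these 4 classes was 10.1% to 10.8% of that in free RNA (barcodes of 10 to 50 UMIs), and in IL31RAKO it was 12.1% to 14.9%. In T cells the summed markers of macrophages stood at 6.44% and 14.03% of their free-RNA level, and those of cDC2 at 11.1% and 15.1%. The class II genes of T cells (4792 CPM in WT and 6117 CPM in IL31RAKO, a ratio of 1.28, interval 1.26 to 1.29) were higher in IL31RAKO. In the same cells the markers of other classes had ratios of 1.76 (macrophage list), 1.41 (cDC2 list) and 1.09 (Langerhans list, at 30.2% and 39.5% of free RNA). The part of free RNA in the T cell class II difference was not tested. Of thinned T cells, 98.3% and 99.5% carried a class II UMI at 1000 UMIs per cell (99.86% and 99.96% unthinned), so presence of a UMI did not separate cells that express these genes from cells that do not. At 1000 UMIs per cell, 3.62% of WT and 10.6% of IL31RAKO T cells held 10 or more class II UMIs. Throughout, ratios are IL31RAKO over WT, and intervals are exact 95% intervals that cover counting error alone. For shares of cells they cover the sampling of cells within 1 library instead.

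The class II chains H2-Aa, H2-Ab1 and H2-Eb1 differed little between genotypes in dendritic cells, Langerhans cells and macrophages, and were higher in IL31RAKO monocytes. H2-Aa (ENSMUSG00000036594, chr17:34282744-34287823) stood in cDC1 at 17249 CPM (WT) and 18086 CPM (IL31RAKO), at 15078 and 16220 in cDC2, at 15027 and 14950 in Langerhans cells, and at 10619 and 10512 in macrophages. In monocytes it was at 5665 and 7363 CPM, a ratio of 1.30 (interval 1.27 to 1.33). H2-Ab1 (ENSMUSG00000073421, chr17:34257689-34269419) was at 6781 and 8180 CPM in monocytes, 1.21-fold higher, and at 12652 and 11496 CPM in macrophages, where its ratio was 0.909 (0.8997 to 0.9178). H2-Eb1 (ENSMUSG00000060586, chr17:34305867-34316674) stood at 4139 and 5181 CPM in monocytes and at 9506 and 8932 CPM in macrophages. The other E beta gene, H2-Eb2, had 183 UMIs in all. Mature dendritic cells held 35 of its 61 WT UMIs and 71 of its 122 IL31RAKO UMIs (78.2 and 98.1 CPM), in 21 of 69 and 36 of 87 cells. The first 3 chains together were 1.03-fold, 1.05-fold and 1.01-fold higher in cDC1, cDC2 and Langerhans cells, 0.944 in macrophages and 1.2495 in monocytes.

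Cd74, the invariant chain (ENSMUSG00000024610, chr18:60803848-60812652), had 822931 UMIs in WT and 1384646 in IL31RAKO. It stood at 44000 and 46186 CPM in cDC1, 39023 and 42601 in cDC2, 46793 and 46607 in Langerhans cells, 23134 and 23473 in macrophages and 14567 and 18713 in monocytes. The ratio was 1.28 (1.27 to 1.30) in monocytes and between 0.996 and 1.09 in the other 4 classes. In macrophages Cd74 and the chains lay on opposite sides of 1, with ratios of 1.01 (1.01 to 1.02) and 0.944 (0.9382 to 0.9498). The chains were lower in 2 macrophage clusters, 0.947 in that led by Ms4a7 and Pf4 and 0.917 in that led by Ccl8, and higher in 2 others that were given no cell type name, 1.05 in that led by Ccl24 and 1.02 in that led by Retnla and Lyz1. The Ccl8 cluster had the lowest class II level of the 4 (44902 and 42842 CPM) and held 13.4% of WT and 23.2% of IL31RAKO macrophages.

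The monocytes were mixed, as the share of class II UMIs per cell shows. The lower quartile of WT monocytes was 0.621% of a cell's UMIs, near the level of T cells, and the upper quartile was 5.42%. In IL31RAKO these quartiles were 0.924% and 6.81%, and the medians were 2.80% and 3.71%. After thinning to 1000 UMIs per cell, 67.4% of 337 WT monocytes (62.1% to 72.3%) and 73.8% of 786 IL31RAKO monocytes (70.6% to 76.8%) held 10 or more class II UMIs, while 25 and 42 shallower cells were left out. Both intervals cover the sampling of cells within 1 pool, so they do not compare the genotypes. In the cluster that held most monocytes of both libraries, 61.6% and 72.5%, a cluster led by Chil3 and Plac8, the summed class II level was 29456 and 40026 CPM, a ratio of 1.36 (1.34 to 1.38). Macrophage markers were 1132 and 1673 CPM in the gated monocytes, 1.48-fold higher over all 10, and the 6 cDC2 markers were 421 and 355 CPM. Their part in the class II difference was not tested.

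**Figure D2:**
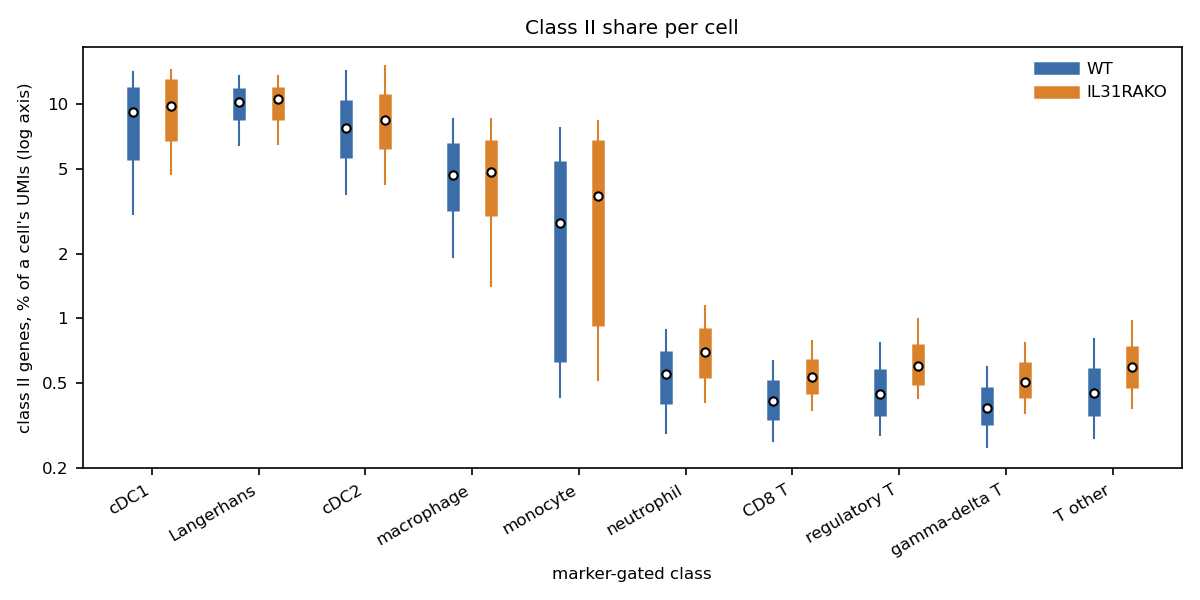
For the 10 classes compared, the open circle is the median share of a cell's UMIs that came from class II genes (log axis), the thick bar runs from the 25th to the 75th and the thin line from the 10th to the 90th percentile, for WT and IL31RAKO. Monocytes span from the T cell level to that of macrophages, with medians of 2.80% and 3.71%, and the T classes and neutrophils lie lower and are shifted upward in IL31RAKO.

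The peptide exchanger H2-DM was most abundant in dendritic and Langerhans cells. Its alpha gene H2-DMa was at 2088 and 2125 CPM in cDC1, 2111 and 2104 in Langerhans cells, 1824 and 1888 in cDC2, 1112 and 1036 in macrophages, 1024 and 1099 in monocytes and 505 and 395 in mature dendritic cells, where class II chains were still at 3.11% and 3.13% of UMIs. H2-DMb1, 1 of 2 beta genes, followed the same classes, at 1417 and 1416 CPM in cDC1 and 753 and 760 in monocytes. The other beta gene, H2-DMb2, did not. It was at 465 and 572 CPM in Langerhans cells, a ratio of 1.23 (1.15 to 1.32), at 181 and 215 in cDC2 (1.19, 1.11 to 1.27), at 98.3 and 90.1 in cDC1 and at 42.6 and 38.0 in macrophages. The B cells had 702 and 763 CPM of it, from 26 and 49 UMIs. Of the 98-base words in the last 500 bases of H2-DMb1 transcripts, 10.9% also occur in H2-DMb2, so some reads of the pair cannot be assigned to 1 gene.

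H2-O, the brake on H2-DM, was highest, in CPM, in B cells and, for H2-Ob, in cDC1. H2-Ob was at 187 and 192 CPM in cDC1, 40.7 and 49.3 in cDC2, 21.2 and 28.0 in Langerhans cells, 12.2 and 10.9 in monocytes and 7.62 and 6.64 in macrophages. It was carried by 55.6% of 160 WT and 60.0% of 345 IL31RAKO cDC1 thinned to 5000 UMIs (56.6% and 67.2% unthinned). The B cells had 3 and 25 H2-Ob UMIs. H2-Oa was at 216 and 265 CPM in B cells, from 8 and 17 UMIs, and at 64.8 and 20.7 in mature dendritic cells, from 29 and 15 UMIs. Among the other classes it had 61.0 and 65.5 CPM in cDC1, 68.2 and 58.4 in Langerhans cells, 49.8 and 59.9 in cDC2 and 54.5 and 38.2 in basophils. In macrophages H2-Oa was at 6.73 and 3.23 CPM, from 30 and 35 UMIs, a ratio of 0.480 (0.286 to 0.810), both below its free-RNA level of 21.2 and 42.1 CPM.

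Ciita, the switch of the class II genes, was sparse, with 1082 and 1728 UMIs. Its order over classes was cDC1 (68.8 and 70.9 CPM), cDC2 (47.3 and 49.0), Langerhans cells (40.8 and 37.3), macrophages (31.6 and 25.8) and monocytes (25.8 and 23.3), with 6.60 and 5.76 in T cells. Neighbours in this order from cDC2 on had overlapping intervals in 1 or both libraries. The ratio of Ciita in monocytes was 0.904 (0.616 to 1.35), so the higher class II level of IL31RAKO monocytes came with no detectable difference in Ciita at this depth. None of the 7 classes where Ciita had 50 or more UMIs had an interval that left out 1.

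Against all genes, the count of members at least 25% higher or 20% lower (the fold used throughout) was judged class by class, counting members with 50 or more UMIs in the class. In monocytes 5 of 24 members were higher, where 13.5% of 6613 genes were, and 4 were lower, where 15.7% were. Of the 9 class II members tested there, 4 were higher (H2-Aa, H2-Eb1, H2-DMb2 and Cd74) and 0 lower, with a median log2 ratio of 0.27 against -0.01 over all genes. The interval of H2-DMb2 (0.913 to 1.94) held 1. In cDC2 1 of 28 was higher (background 6.52%) and 4 were lower (10.8%). The 10 class II members there had a median log2 ratio of 0.09 against -0.02 over all genes, none was past the fold and 9 lay above 1. In Langerhans cells 1 of 27 was higher (14.6%) and 4 were lower (11.6%). In cDC1 0 of 26 were higher (13.5%) and 2 lower (12.1%). In macrophages 0 of 27 were higher (12.4%) and 3 lower (10.5%), and the class II median was -0.15 against 0.02. With 1 library per group these counts are by fold alone. The shares over all genes were not matched for UMI depth, and genes near 50 UMIs pass the fold by counting error more easily than deep members such as Cd74.

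**Figure D3:**
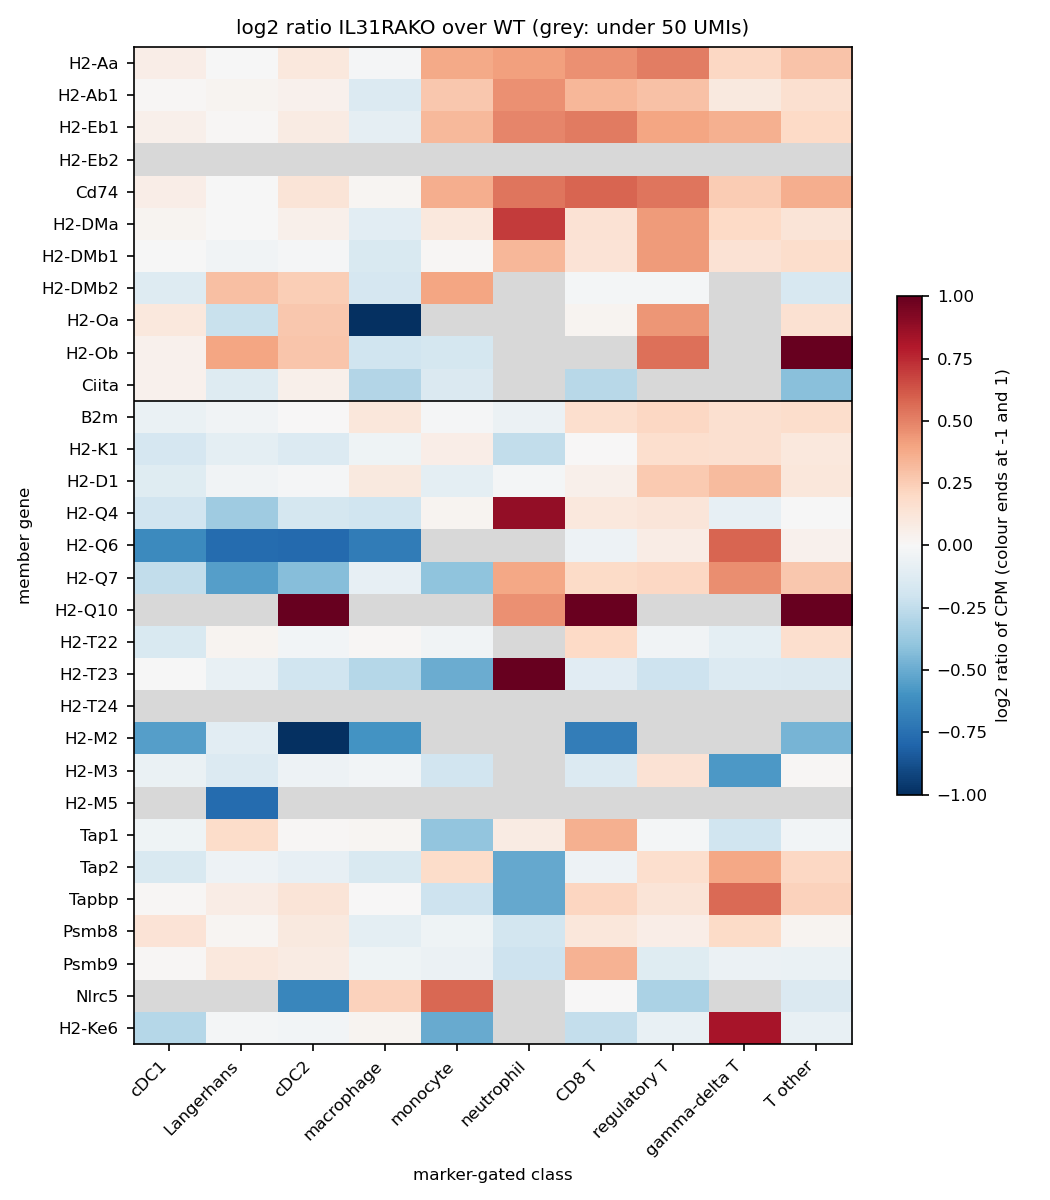
Colour gives the log2 ratio of CPM, IL31RAKO over WT, for the 31 kept members (rows, class II above the line) in the 10 classes compared (columns), and grey marks a member with under 50 UMIs in the class. The rows of H2-Aa, H2-Ab1, H2-Eb1 and Cd74 are near 0 in cDC1, Langerhans cells, cDC2 and macrophages and red in monocytes, and H2-Q6, H2-Q7 and H2-M2 are blue in cDC2.

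In neutrophils, CD8 T cells and regulatory T cells, most members called higher were class II genes, at levels far below those in free RNA. In neutrophils 10 of 18 members were higher (background 15.7%) and 2 lower (26.9%), and 6 of the 10 were class II. The median ratio of all neutrophil genes was -0.10 on the log2 scale, so every neutrophil ratio is read relative to that shift. Neutrophil class II level was 6869 and 9630 CPM, or 15.5% and 23.4% of free RNA, and macrophage markers were at 345 and 581 CPM. Cd74 was at 2653 and 3845 CPM there and H2-Ab1 at 1675 and 2296, and H2-Ab1 was 1.37-fold higher. In CD8 T cells 7 of 27 members were higher (9.07%) and 1 lower (13.0%), and Cd74 (1633 and 2439 CPM) and H2-Eb1 (645 and 922 CPM) led. In regulatory T cells 7 of 25 were higher (12.9%) and 0 lower (13.2%), and all 7 were class II. Cd74 was at 1753 and 2542 CPM there and H2-Aa at 707 and 1008. The intervals of H2-Oa (20 and 36 UMIs, 0.766 to 2.48) and H2-Ob (17 and 33 UMIs, 0.793 to 2.81) held 1. Macrophage and cDC2 markers had ratios of 1.98 and 1.30 in regulatory T cells, where summed class II had 1.36. In CD8 T cells they had 1.76 and 1.42, and class II 1.38. The part of such RNA in these class II differences was not tested. In gamma-delta T cells 6 of 21 were higher (16.6%) and 1 lower (24.9%), of which 1 class II. In other T cells 3 of 28 were higher (9.04%) and 2 lower (13.4%), with Cd74 at 1923 and 2480 CPM.

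Class I RNA was spread over all classes, 0.530% to 1.53% of UMIs in the classes plotted, and its order differed from that of class II. Of the leukocyte classes, mature dendritic cells led (14401 CPM in WT and 15297 in IL31RAKO), then NK cells (12252 and 13352) and regulatory T cells (11007 and 12577), while cDC2, the third for class II, were among the lowest (6153 and 6071). Macrophages had 7278 and 7584 CPM. T cells had 9359 and 10626 CPM, a ratio of 1.14 (1.13 to 1.14), at 124% and 142% of the free-RNA level. The ratio was above 1 in all 4 T classes, 1.08 in CD8 T, 1.14 in regulatory T, 1.15 in gamma-delta T and 1.10 in other T cells, and 1.09 in NK cells. It was 0.959 in cDC1, 0.987 in cDC2, 0.958 in Langerhans cells, 0.969 in monocytes, 0.982 in neutrophils and 1.04 in macrophages. The class I difference in T cells was smaller, 1.09, once free RNA was subtracted. Over the 18 class I members tested in T cells the median log2 ratio was 0.11 against -0.04 over all genes, and 2 were higher past the fold (H2-Q7, H2-Q10; background 8.90% of 10957 genes) and 2 lower (H2-M5, H2-M2; 12.0%).

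B2m, the common light chain (ENSMUSG00000060802, chr2:122147686-122153083), had 166035 and 228125 UMIs. It was at 4042 and 4686 CPM in T cells (1.16, 1.15 to 1.17), with 4106 and 4608 in CD8 T, 4682 and 5394 in regulatory T, 3707 and 4148 in gamma-delta T and 3915 and 4420 in other T cells. It was at 3833 and 4146 CPM in macrophages (1.08), at 2659 and 2660 in cDC2 and at 4234 and 4196 in monocytes. Among the classical heavy chains, H2-D1 differed more than B2m in regulatory T and gamma-delta T cells and less in CD8 T cells. H2-D1 (chr17:35262730-35267499) was at 2812 and 3370 CPM in regulatory T (1.20, 1.16 to 1.24), at 1814 and 2257 in gamma-delta T (1.24, 1.17 to 1.32), at 2335 and 2424 in CD8 T, at 1455 and 1561 in macrophages (1.07) and at 2070 and 1899 in cDC1 (0.918, 0.883 to 0.953). H2-K1 (chr17:33996017-34000347) was at 1379 and 1381 CPM in CD8 T, 1704 and 1914 in regulatory T, and 572 and 510 in cDC1 (0.892, 0.829 to 0.960). Their last 500 bases shared no 98-base word with another gene's transcripts in that annotation.

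The nonclassical genes of the Qa region were higher in T and NK cells than in cDC2 and Langerhans cells. In mature dendritic cells they summed to 615 and 459 CPM, against 444 and 524 in T cells. H2-Q7, the Qa-2 gene, was at 255 and 320 CPM in T cells, 493 and 661 in NK cells, 44.5 and 33.1 in cDC2 and 50.5 and 34.4 in Langerhans cells. Its ratio was 1.253 in T cells (1.204 to 1.304) and lower in cDC2 (0.743, 0.645 to 0.857) and in Langerhans cells (0.682, 0.527 to 0.876). In both dendritic classes these levels lay below free RNA (174 and 184 CPM). H2-Q6 was at 10.4 and 6.07 CPM in cDC2 (0.584, 0.424 to 0.804) and at 12.6 and 7.75 in macrophages, from 56 and 84 UMIs, and at 61.2 and 59.0 CPM in CD8 T cells. Of its 98-base words 24.4% occur in other genes, most of them in H2-Q7, so the split between the pair is uncertain. H2-Q4 was at 120 and 127 CPM in T cells and at 30.4 and 27.0 in cDC2.

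H2-Q10, best known as a secreted class I molecule of the liver, was highest in neutrophils here. It was at 332 and 456 CPM in neutrophils, a ratio of 1.38 (1.11 to 1.72), and at 139 and 73.4 in basophils. The neutrophils held 98 of its 258 WT UMIs and 648 of its 1095 IL31RAKO UMIs, spread over 70 of 248 and 414 of 1076 cells with at most 3 and 7 in 1 cell. In cDC2 it was at 1.35 and 4.05 CPM (11 and 52 UMIs) and in other T cells at 2.53 and 6.75 CPM (22 and 38 UMIs), ratios of 3.01 and 2.67. Neutrophils made up 2.08% of WT and 7.36% of IL31RAKO barcodes, and neutrophil markers in cDC2 were at 89.4 and 310 CPM. The part of these in the cDC2 and T cell ratios was not tested.

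H2-T23, the Qa-1 gene whose product shows leader peptides to NK receptors, was at 114 and 81.0 CPM in monocytes (0.711, 0.589 to 0.860), 93.9 and 81.7 in cDC2 (0.870), 80.9 and 66.4 in macrophages (0.821, 0.722 to 0.934) and 108 and 101 in T cells. Its ratio was above 1 in 1 of 10 classes compared, the neutrophils, where it was 2.47 and rested on 7 and 83 UMIs. H2-T22, whose product is bound by some gamma-delta T cell receptors, was at 82.4 and 94.3 CPM in T cells and 36.5 and 36.9 in macrophages, and 21.98% of its words are shared, all with H2-T10. H2-T24 had 47 and 97 UMIs in all and passed the 50-UMI limit in no class. H2-M3, which shows formylated bacterial peptides, was at 57.7 and 55.7 CPM in cDC2, 68.4 and 67.0 in macrophages and 51.5 and 51.1 in T cells, and none of the 9 classes tested had an interval that left out 1.

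H2-M5 was read mainly in Langerhans cells, with 0 UMIs in mature dendritic cells of either library, and H2-M2 in both of these classes. H2-M5 (ENSMUSG00000024459, chr17:36984061-36989537) stood in Langerhans cells at 269 CPM in WT (253 to 286) and 158 CPM in IL31RAKO (144 to 174), and at under 5 CPM in every other class of 100 or more barcodes in each library. The Langerhans cells held 1001 of its 1132 WT UMIs and 441 of its 507 IL31RAKO UMIs. The ratio in Langerhans cells was 0.588 (0.525 to 0.658). The UMIs were spread over 235 of 378 WT and 134 of 239 IL31RAKO cells, with at most 19 and 13 in 1 cell. Thinned to 5000 UMIs, 54.6% of 326 WT (49.0% to 60.1%) and 40.7% of 221 IL31RAKO Langerhans cells (34.2% to 47.5%) carried a UMI, against 0.546% and 0.148% of T cells. The Langerhans markers were 1.04-fold higher in the IL31RAKO class. The class was gated on these markers, so their level there is partly set by the gate. The part of cell content in the H2-M5 ratio was not tested. The ratio was 0.563 within the cluster holding most Langerhans cells and 0.619 without called doublets, which were 22.5% and 32.6% of the gated cells. H2-M5 was also 3.46 and 0.906 CPM in T cells, from 65 and 14 UMIs, and Langerhans cells were 3.17% of WT and 1.63% of IL31RAKO barcodes.

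H2-M2 (chr17:37480851-37483552) was at 1104 and 684 CPM in mature dendritic cells (69 and 87 barcodes), 700 and 650 in Langerhans cells (0.929, 0.875 to 0.987), 86.1 and 56.8 in macrophages (0.660, 0.580 to 0.752) and 45.1 and 20.9 in cDC2 (0.464, 0.395 to 0.544). In both libraries few cells carried it outside Langerhans and mature dendritic cells. It was seen in 122 of 1564 WT and 131 of 2026 IL31RAKO cDC2, with as many as 58 UMIs in 1 WT cell, and in 124 of 1523 and 165 of 3060 macrophages. Among cDC2 barcodes without a Langerhans marker UMI the ratio was 0.883 (0.666 to 1.18), and without called doublets it was 0.446. Among macrophages without such a UMI it was 0.681 (0.570 to 0.815). Langerhans markers were at 150 and 137 CPM in cDC2 and at 122 and 75.1 CPM in macrophages, and their part in these ratios was not tested.

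**Figure D4:**
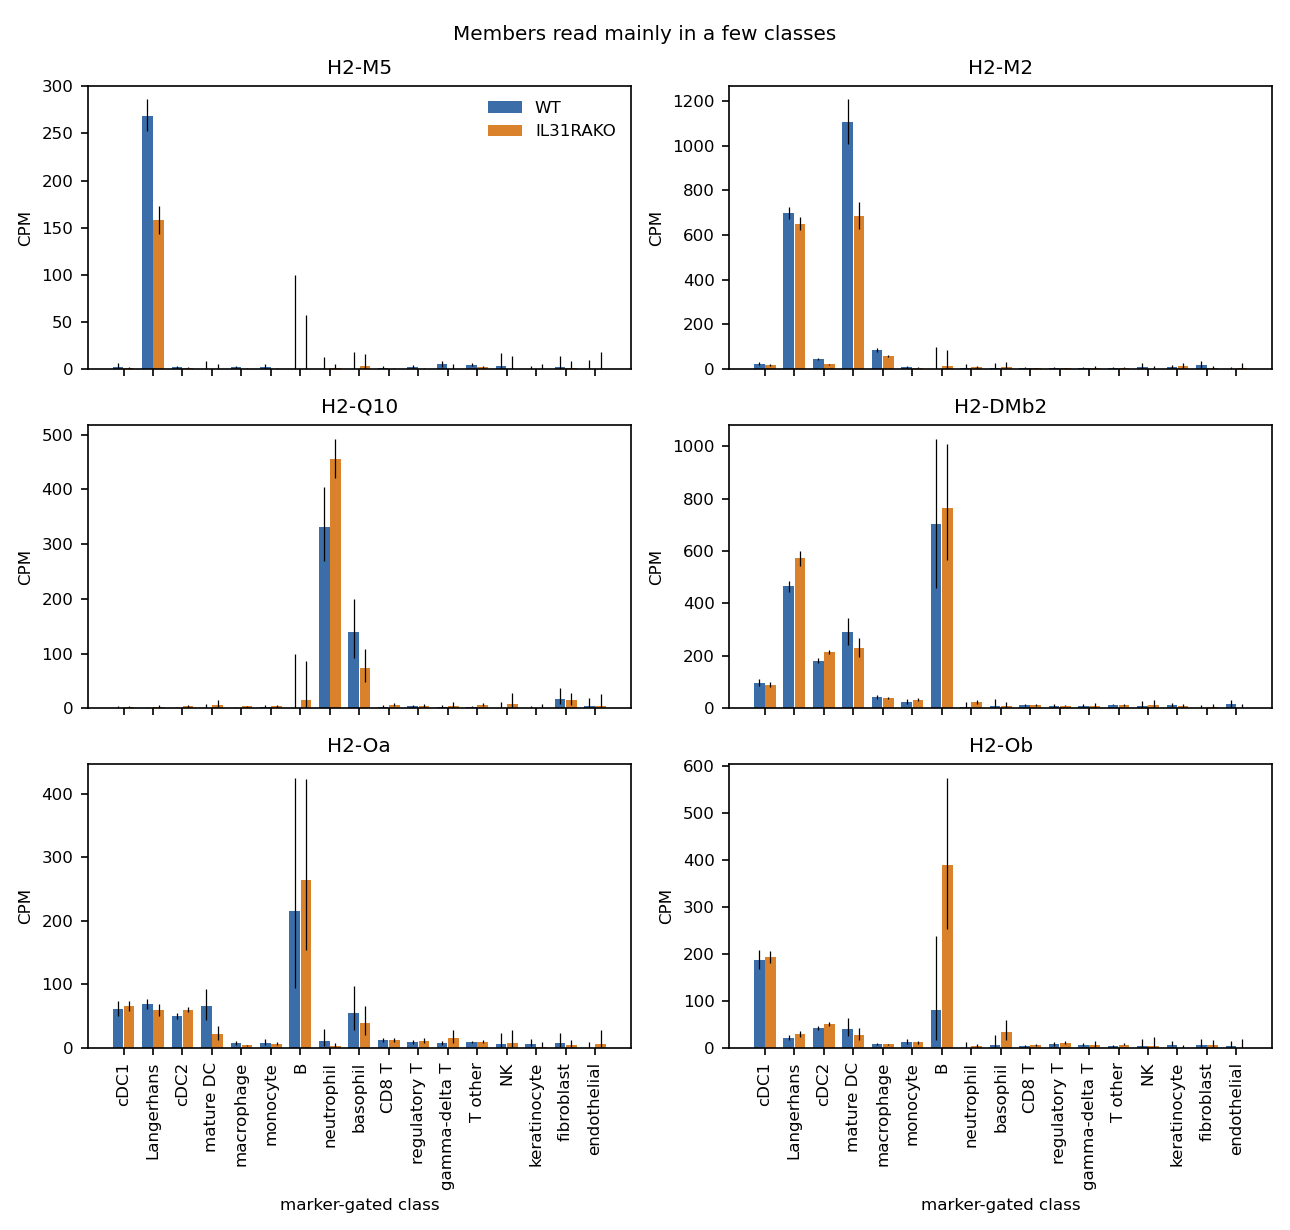
Bars give CPM of 6 members in each marker-gated class for WT and IL31RAKO, and black lines are exact 95% Poisson intervals (counting error alone). H2-M5 stands at 269 and 158 CPM in Langerhans cells and H2-Q10 at 332 and 456 CPM in neutrophils, while the B cell bars rest on 14 and 28 barcodes.

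Most peptide supply genes lay within the fold in most classes, and the exceptions were spread over several classes. Psmb8 (chr17:34197721-34201454) was at 928 and 1018 CPM in cDC1 (1.10, 1.04 to 1.16), 494 and 527 in cDC2, 405 and 377 in macrophages (0.932) and 430 and 458 in T cells. Psmb9 was at 457 and 459 CPM in cDC1, 137 and 145 in cDC2, 174 and 167 in monocytes and 108 and 138 in CD8 T cells (1.27, 1.14 to 1.42). Tap1 was at 70.5 and 90.3 CPM in CD8 T cells (1.28, 1.12 to 1.47), at 96.6 and 73.3 in monocytes (0.759, 0.620 to 0.932) and at 173 and 169 in cDC1. Psmb9 and Tap1, neighbours that start within each other's windows, were both higher past the fold in CD8 T cells, and Psmb9 had a ratio of 0.959 in monocytes. Tap2 and Tapbp were at 102 and 113 and at 118 and 140 CPM in T cells, and in gamma-delta T cells their ratios were 1.30 and 1.48. In neutrophils Tapbp was at 156 and 109 CPM (0.701, 0.502 to 0.997). Nlrc5, the class I switch, had 992 UMIs in all, with 11.9 and 11.1 CPM in T cells, 8.37 and 12.4 in monocytes (1.49, 0.791 to 2.99, from 13 and 47 UMIs) and 7.21 and 4.59 in cDC2 (0.636, 0.436 to 0.929). H2-Ke6 was at 69.7 and 59.0 CPM in CD8 T cells and at 47.4 and 84.0 in gamma-delta T cells, and 43.1% of its words are shared with a read-through transcript.

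Other genes of the class II pathway, 23 in the list, were higher past the fold for 5 of 22 tested in monocytes and lower for 2, where 13.5% and 15.7% of all genes were. Lgmn, a protease that trims the invariant chain and antigens, was at 316 and 514 CPM (1.63, 1.47 to 1.80). Ctsl was at 116 and 164 (1.41) and Ctsd at 151 and 192 (1.28). The costimulator Cd40 was at 36.1 and 22.2 (0.617, 0.435 to 0.881). Intervals held 1 for Nfyb and Irf4, also called higher, and for Cd80, called lower. Lgmn and Ctsl were higher in T cells too, with ratios of 2.13 and 2.12. Macrophage markers were 1.48-fold higher in the monocytes, and their part was not tested. In macrophages, with shares of 12.4% and 10.5% over all genes, 2 of 23 were higher, Ctsl (191 and 307 CPM, 1.61) and Ctsd (207 and 263, 1.27), and 3 lower, among them Cd83 (87.2 and 66.3, 0.760), whose product keeps class II on the surface. In Langerhans cells 5 of 22 were higher (14.6% over all genes) and 1 lower (11.6%), and Cd86, the costimulatory ligand, was at 192 and 295 CPM (1.54, 1.39 to 1.71) and Cd40 at 45.7 and 62.0 (1.36). In cDC2 3 of 23 were higher (Ctsl 1.63, Irf8 1.29, Lgmn 1.27) and 1 lower, against 6.52% and 10.8% over all genes. The macrophage counts are near the shares over all genes in that class. Of the 14 other class I pathway genes, such as the standard proteasome subunits and chaperones, 2 of 12 were higher and 1 lower in monocytes, and 0 and 1 of 12 in macrophages.

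Over 34 points (17 classes in each library), the genes most like the summed class II level were Rassf4, Aif1, Ifi30, Rp2 and Ctss, with Pearson r of 0.93, 0.92, 0.91, 0.91 and 0.91 on log2(CPM + 1). Ifi30 and Ctss encode lysosomal enzymes of antigen processing. Those most like the summed class I level were AW112010 (0.88), Adora2a (0.82), Ccl5 (0.81), Pla2g16 (0.76) and Birc2 (0.75). The points share libraries and free RNA, so these are descriptions.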

How the data were processed

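Cells were counted by the authors into 1 matrix per library of raw UMI counts per gene and barcode, as deposited. The submitters' processing notes name Cell Ranger 3.1, Seurat 3.2.2 and mm10, without giving each a role. The annotation behind the counts was not given in the sources used here. Per the labels' protocols, libraries were 10x Chromium 3′ v2.

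Barcodes with 500 or more UMIs, 250 or more genes and under 10% mitochondrial UMIs were kept, 11934 of 13802 WT and 14619 of 16169 IL31RAKO barcodes that passed the UMI and gene limits. Cell classes were marker gates (a score of 0.25 or more from at least 2 markers). Between scores of 0.2 and 0.25 lay 223 and 293 barcodes, and 395 and 439 lay between 0.25 and 0.3. Barcodes with markers of more than 1 lineage, 514 and 904, were left out as doublets, and 838 and 818 had no class. Scrublet calls, run beside this, were used as an alternative. Clusters (28, Leiden, scanpy 1.11.5) were built without the members.

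Levels were summed UMIs of a class per 1000000 of that class (CPM). Ratios carry exact conditional binomial intervals and levels exact Poisson intervals (scipy 1.17.1), both at 95% and for counting error alone. Shares carry exact 95% Clopper-Pearson intervals, which cover the sampling of cells within 1 library and not differences between pools. Shares were thinned to 1000 or 5000 UMIs per cell. With 1 library per group there is no p-value. Genes were compared from 50 UMIs in a class, and a difference was counted from 25% higher or 20% lower. The ratio step was run on simulated macrophage counts that held counting error alone. Over 9347 genes, 95.6% of intervals held the true ratio and 99.0% of 200 changed genes passed the fold. The changed genes were set well past the fold, so these shares cover neither changes near it nor spread between pools.

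Named throughout were the class II chains, Cd74, Ciita, H2-DM, H2-K1, H2-D1, B2m, Tap1, Psmb8, Psmb9 and Nlrc5, and per class the 2 members higher and the 2 lower with intervals farthest from 1. Others that are named were chosen after their values were seen. The members and lists were chosen with earlier results of these data known. Shared 98-base words were counted on GENCODE M21 protein-coding transcripts, promoter letters on RefSeq windows. Alternatives were another scaling, doublet, depth and mitochondrial limits, clusters in place of gates, subtraction of free RNA, and per-cell means. The free-RNA share (7.35% of WT and 14.3% of IL31RAKO T cell UMIs), the marker-free H2-M2 values, the H2-M5 values without doublets and within a cluster, and the monocyte gate without Chil3 were chosen after seeing the data.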

Additional observations from a re-analysis of the deposited data

Results flagged for a closer look

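Several members lay on opposite sides of 1 in different classes, each with a counting interval that left out 1. The differences between classes were not tested. Tap1, a subunit of the peptide transporter, had a ratio of IL31RAKO over WT of 1.28 in CD8 T cells and 0.759 in monocytes. Tapbp, the tapasin gene, was at 1.48 in gamma-delta T cells and 0.701 in neutrophils, from 46 and 155 UMIs. The neutrophil interval, 0.502 to 0.997, left out 1 but held the median ratio of all neutrophil genes, 0.933. H2-Q7 was at 1.38 in gamma-delta T cells, 0.743 in cDC2 and 0.682 in Langerhans cells. H2-T23 was at 2.47 in neutrophils, from 7 and 83 UMIs, and 0.711 in monocytes. H2-Ke6, which presents no antigen and shares words with a read-through transcript, was at 1.77 in gamma-delta T cells and 0.706 in monocytes.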

How the results depend on the processing

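The class II ratio in monocytes, 1.254, stayed above 1 under every alternative run, at 1.24 without called doublets, 1.17 in clusters, 1.19 with free RNA subtracted, 1.21 as a mean over cells and 1.21 with a gate without Chil3. In cDC2, at 1.07, it was 1.09 scaled by the median gene ratio, 1.08 per total without the members, 1.07 without doublets, 1.06 at a mitochondrial limit of 5%, 1.07 in clusters and 1.04 with free RNA subtracted. In macrophages, at 0.971, it was 0.955 by the median gene ratio, 0.963 from 1000 UMIs per barcode, 0.961 in clusters and 0.922 with free RNA subtracted, and it turned to 1.00 as a mean over cells, in which deep cells weigh no more than shallow ones. Class I in T cells, at 1.14, was 1.17 by the median gene ratio, 1.14 without doublets and 1.09 with free RNA subtracted. Class I in macrophages, at 1.04, was 1.02 by the median gene ratio and turned to 0.969 with free RNA subtracted. The 3 macrophage members past the fold became 6 with no filter on low counts, since more members were then tested. No paired analysis was possible because each group is 1 library. Members under 50 UMIs in a class, and classes under 100 barcodes, were too shallow to compare.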

Other observations

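Genes of the interferon gamma pathway, which switches on Ciita and Nlrc5, were described from a list of 15. In monocytes 0 of 12 tested were higher by 25% or more and 6 lower, against 13.5% and 15.7% of all genes, with a median log2 ratio of -0.34 against -0.01 over all genes, and the GTPase genes Igtp and Gbp2 were at 36.7 and 16.7 CPM (ratio 0.454, 0.312 to 0.662) and at 41.2 and 22.2 CPM (0.540, 0.385 to 0.759) in WT and IL31RAKO. Among the 6 called lower, Jak2, Socs1 and Irgm1 had intervals that held 1. The class II genes of the same monocytes were higher. In macrophages 1 of 15 was higher and 5 were lower, against 12.4% and 10.5% of all genes. The interval of Iigp1, among those called lower, held 1. The chemokine gene Cxcl9 was at 17.9 and 6.18 CPM (0.345, 0.245 to 0.483). Cxcl10, another chemokine gene and the 1 called higher, was at 19.7 and 25.8 CPM (1.31, 1.03 to 1.68). In Langerhans cells 5 of 11 were higher and 0 lower, against 14.6% and 11.6% of all genes. Gbp2 was at 8.06 and 21.5 CPM (2.67, 1.69 to 4.29), from 30 and 60 UMIs. Among the 5 called higher there, Igtp had an interval that held 1 (0.903 to 2.53).

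In CD8 T cells Ifng itself stood at 56.8 CPM (WT) and 38.4 CPM (IL31RAKO), a ratio below 1 (0.676, 0.566 to 0.807) and at 38.5 and 61.8 CPM in other T cells (1.61, 1.38 to 1.87). With 1 library per group these values have no replicate check.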
